A study of Mus musculus with 4 samples.

Results

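The expression of 10 regulators of mitochondrial biogenesis was followed in mouse kidney RNA after cisplatin and after saline. They are the PGC-1 coactivators Ppargc1a, Ppargc1b and Pprc1, the estrogen-related receptors Esrra and Esrrg, the nuclear respiratory factors Nrf1 and Gabpa, the fatty acid receptor Ppara, and Tfam and Polrmt, which act on mitochondrial DNA itself. The members were taken by gene symbol from the deposited count table. All 10 were found, each in 1 row, among 29190 genes. All 10 also passed the filter on low counts, as did 17419 genes in total.

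The kidneys came from male C57 mice, 8 weeks old, injected with cisplatin at 30 mg/kg body weight or with physiological saline. Cisplatin, an anticancer drug, binds DNA and is toxic to kidney tubules. Each group had 2 libraries, which the design text calls biological replicates. The protocol names 18 mice in 3 groups, with cisplatin given 24 or 48 h before death, and the sources used here do not tie the cisplatin libraries to either time. How many mice stand behind a library is not given either, so SDs and p-values measure only how far these libraries differ, which may be partly technical.

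Mitochondria are built from proteins of 2 genomes, most of them encoded in the nucleus. PGC-1 coactivators do not bind DNA themselves. They dock on factors such as the ERR receptors, NRF1, GABP and PPAR-alpha, which bind near nuclear genes of respiration and fatty acid oxidation. TFAM packages mitochondrial DNA and opens its promoters for the mitochondrial RNA polymerase POLRMT. The proximal tubule of the kidney reabsorbs most filtered solutes, runs largely on fatty acid oxidation and is among the tissues richest in mitochondria.

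The libraries held 20662475 to 27122403 counts, and members had between 54 and 3262 counts in a library. Abundances are given as CPM, a gene's count relative to the library total after TMM scaling, which uses a trimmed mean of the log ratios between libraries. The factors of this scaling were 1.15 and 1.12 in the cisplatin libraries against 0.86 and 0.90 in the saline libraries, so the scaling itself separated the groups. The median log2 fold change of all tested genes was 0.04 with TMM and 0.41 with library size alone, and each change is to be read against that level. A gene was called when its Benjamini-Hochberg adjusted p in the quasi-likelihood test of edgeR was under 0.05. That held for 73.6% of all tested genes, with 37.2% higher and 36.4% lower after cisplatin. Kidney markers were present in both groups, and those of the proximal tubule differed between them. All 12 tested proximal tubule markers fell, with a median log2 fold change of -2.33. Their summed level was 18399 and 17807 CPM after cisplatin against 47473 and 45635 CPM after saline. Kap, named after its values were seen, held most of these sums. It stood at 14781 and 14242 CPM after cisplatin against 25836 and 23592 CPM after saline, the smallest fall of the 12 (log2 fold change -0.77). All 10 markers of the thick limb and distal tubule fell as well, from 8094 and 8181 CPM summed to 2538 and 2457 CPM. In bulk tissue, fewer cells of a type and less RNA per cell cannot be told apart. The part of cell makeup in the members' values was not tested.

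After cisplatin 7 of the 10 members fell, against 36.4% of all tested genes. Pprc1 and Polrmt rose, against 37.2% of all tested genes, and Nrf1 did not pass the test. The receptors Esrrg and Ppara had the largest falls, and the coactivator Pprc1 had the largest rise. The members' median log2 fold change was -0.73, beside 0.04 for all tested genes. When only library size was used for scaling, 7 members fell and 3 rose, all 10 passing, where 76.5% of all tested genes passed, 24.2% lower and 52.3% higher. The members' median was then -0.36 beside 0.41. Upper-quartile scaling gave 7 lower and 2 higher, where 74.2% of all tested genes passed, 32.3% lower and 41.9% higher. For 9 of the 10 members the groups' libraries did not overlap, close to the 86.3% found among all tested genes.

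**Figure D1:**
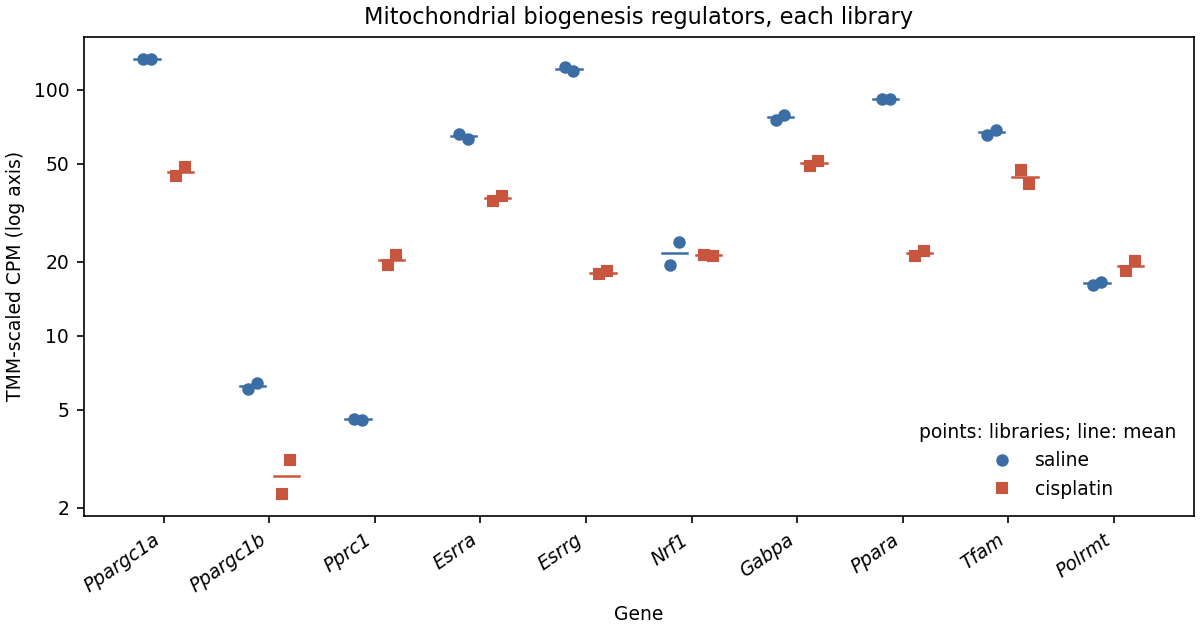
TMM-scaled CPM (log axis) of the 10 regulators, with a point for each library (circles saline, squares cisplatin) and a short line at the group mean. The groups are apart for every gene but Nrf1, whose saline libraries lie on either side of the cisplatin libraries, and Pprc1 and Polrmt are the genes with both cisplatin libraries on top.

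The sequences before the start sites of 5 members are shown because they hold the letters of sites named for other members, namely NRF1 and GABP, or a site of CREB, a cAMP-responsive factor known to act on Ppargc1a. They come from RefSeq windows on GRCm38.p6 of 300 bases (250 before and 50 after a start). Windows were matched by symbol for 9 members, in 13 windows, and not for Ppargc1b. Capitals mark the matched letters on either strand, and the GENCODE M21 exons of the gene were left out, except for Tfam. The Ppara stretch lies before its RefSeq start but inside the GENCODE span of the gene, which begins at 85734983.
Tfam, chr10:71238073-71238102, minus strand, first exon of a GENCODE transcript, match 47 bases before the RefSeq start: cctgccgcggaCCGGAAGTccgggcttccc
Esrra, chr19:6921814-6921908, minus strand, match 34 bases before the start: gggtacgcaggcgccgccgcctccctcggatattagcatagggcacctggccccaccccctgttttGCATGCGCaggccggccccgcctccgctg
Ppara, chr15:85735714-85735775, plus strand, overlapping matches on both strands: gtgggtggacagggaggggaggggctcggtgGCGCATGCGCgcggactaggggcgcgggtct
Polrmt, chr10:79746660-79746759, minus strand, match 133 bases before the start: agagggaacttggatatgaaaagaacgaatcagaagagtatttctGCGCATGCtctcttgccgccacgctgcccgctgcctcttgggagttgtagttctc
Ppargc1a, chr5:51567727-51567825, minus strand, match 49 bases before the start: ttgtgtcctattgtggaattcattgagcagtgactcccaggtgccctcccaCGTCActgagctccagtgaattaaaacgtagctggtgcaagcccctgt

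The core of the NRF1 motif, GCATGCGC, was found for Esrra, Ppara and Polrmt, which is 3 of 9 genes and 3 of 13 member windows, beside 2.71% of all 32851 windows. The GABP and ETS motif CCGGAAGT was found for Tfam alone among members, in 1 of 13 windows, beside 3.89% of all windows. The short CREB site TGACG, which is also part of the full site TGACGTCA, was found for Ppargc1a and Ppara, in 2 of 13 windows, beside 20.8% of all windows. The full site was found in 0 member windows and in 1.79% of all windows. The ERR site AAGGTCA (4.72% of all windows) and the E-box CACGTG (7.15%) were found in 0 of the 13 member windows. These matches describe letters only. Of the genes that carried the NRF1 core, Esrra and Ppara were lower. Polrmt was slightly higher, a call lost under 6 of 14 alternatives. How the letters relate to these changes was not tested.

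Among the coactivators, Ppargc1a and Ppargc1b fell while Pprc1 rose. Ppargc1a (ENSMUSG00000029167.11, chromosome 5, 51454250 to 51567726, minus strand, GRCm38) encodes PGC-1-alpha, the inducible coactivator that responds to fasting, cold and energy stress. It stood at 44.4 and 48.2 CPM after cisplatin and at 133 and 134 CPM after saline. The cisplatin libraries were each below the saline libraries by far more than the replicates differed. Its log2 fold change was -1.52 (SE 0.06, with an adjusted p of 6.38e-15 in the quasi-likelihood test of edgeR).

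Ppargc1b (ENSMUSG00000033871.12, chromosome 18, 61298136 to 61400431, minus strand) encodes PGC-1-beta, the closest relative of PGC-1-alpha. It had 54 and 81 counts after cisplatin against 112 and 157 after saline, or 2.28 and 3.12 CPM against 6.06 and 6.43 CPM. Both cisplatin libraries were lower, and they differed more between themselves than the saline libraries did. The log2 fold change was -1.20 (SE 0.20; adjusted p = 1.89e-05 by the same method). On log2 of FPKM, the authors' length-normalized level, plus a pseudocount of 1, where the gene's own FPKM was 0.43 and 0.57 against 0.89 and 1.04, it was -0.39.

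Pprc1 (ENSMUSG00000055491.11, chromosome 19, 46044886 to 46072915, plus strand) encodes PRC, a coactivator known as an early response gene of proliferating cells. It had 460 and 552 counts after cisplatin and 85 and 111 after saline. The levels were 19.4 and 21.3 CPM against 4.60 and 4.55 CPM, so both cisplatin libraries were more than 4-fold above both saline libraries. The log2 fold change was 2.15 (SE 0.13; adjusted p = 7.45e-12), above that of 93.9% of all tested genes, and 1.29 on log2 of FPKM plus 1. Its exons share 177 bases with those of Ldb1 on the opposite strand, which rose by less (log2 fold change 0.45, SE 0.09), and the strand setting of the counting is not known.

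The makeup of the coactivator family thus differed between the groups. Per length, in the authors' FPKM, Ppargc1a made up 89.1 and 88.9% of the family's summed level after saline and 61.5 and 60.5% after cisplatin. Pprc1 went from 3.81 and 3.71% of the sum to 33.0 and 32.8%, and Ppargc1b held 5.51 to 7.42% in all 4 libraries. The family's summed FPKM was 12.6 and 14.0 after saline and 7.81 and 8.48 after cisplatin. Within a library, a ratio of 2 genes does not depend on the scaling between libraries. The ratio of Ppargc1a to Pprc1 was 23.4 and 24.0 after saline and 1.86 and 1.85 after cisplatin, a 12.8-fold difference with groups far apart. Ppargc1b to Pprc1 stood at 1.85 and 2 against 0.167 and 0.205. The ratio of Ppargc1a to Ppargc1b was 12.61 and 11.98 against 11.16 and 9, a 1.23-fold difference in which the groups did not overlap but stood closer. With 2 libraries against 2, the exact two-sided permutation p was 0.333 for each of the 8 ratios computed, before and after Benjamini-Hochberg adjustment, which is the smallest this design allows.

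**Figure D2:**
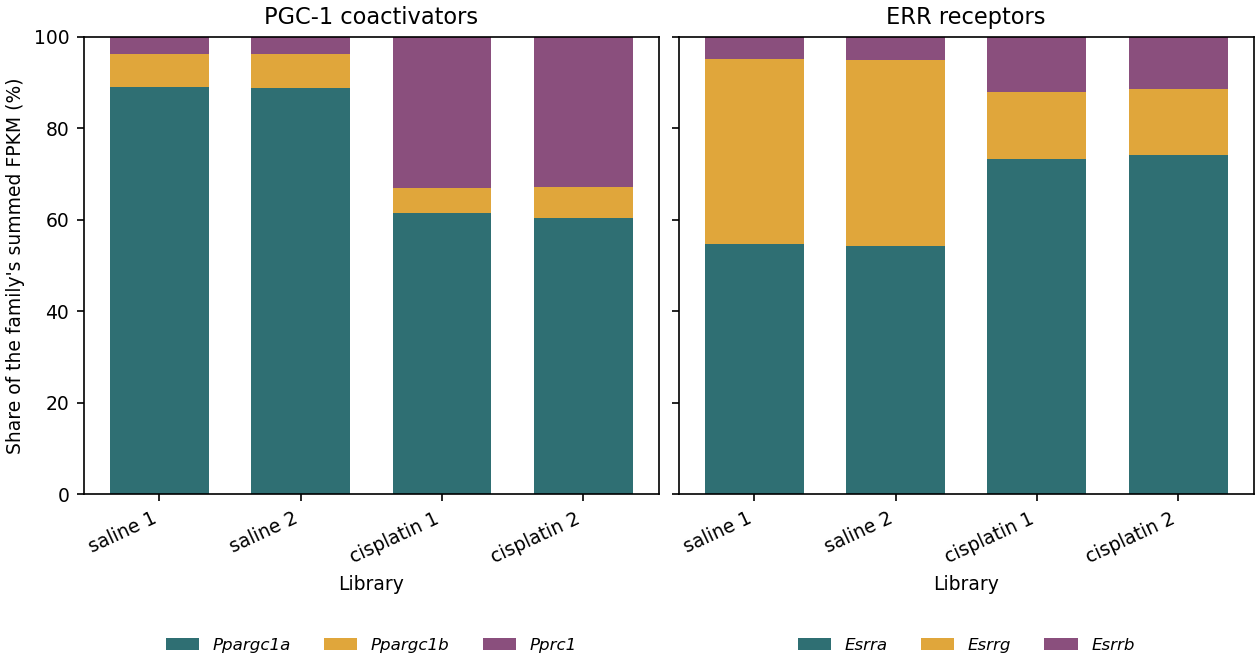
Share (%) of the summed FPKM of a family held by each gene in each library, for the PGC-1 coactivators (left) and the ERR receptors (right). Pprc1 takes about 33% of the coactivator sum in both cisplatin libraries and under 4% in both saline libraries, and Esrrg goes from about 40% to under 15% of the receptor sum.

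The genes whose pattern over the 4 libraries was nearest to that of Ppargc1a were Pitpnc1, Dhdh and Asah2, by Euclidean distance of centred log2 CPM. Pitpnc1, a phosphatidylinositol transfer protein gene, stood at 30.5 and 32.6 CPM after cisplatin against 90.7 and 91.3 after saline. Among 11532 genes compared, 329 lay within a distance of 0.2, so many genes had nearly this pattern.

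Both ERR receptors fell, Esrrg 6.73-fold and Esrra 1.78-fold. Esrrg (ENSMUSG00000026610.11, chromosome 1, 187608791 to 188214885, plus strand) encodes ERR-gamma, an orphan receptor of tissues with high oxidative demand. It stood at 17.8 and 18.3 CPM after cisplatin and at 124 and 119 CPM after saline. The replicates lay close together and the groups were 6.73-fold apart. The log2 fold change was -2.75 (SE 0.06; adjusted p = 4.45e-18, edgeR quasi-likelihood), lower than in all but 1.98% of tested genes.

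Esrra (ENSMUSG00000024955.11, chromosome 19, 6910977 to 6921813, minus strand) encodes ERR-alpha, the main partner of PGC-1-alpha on genes of respiration. It stood at 35.4 and 36.8 CPM against 66.0 and 62.9 CPM after saline, a log2 fold change of -0.83 (SE 0.07; adjusted p = 9.11e-10). Scaled by library size alone the log2 fold change was -0.47, and on log2 of FPKM plus 1 it was -0.53. Its exons share 73 bases with Trmt112 on the opposite strand, for which the log2 fold change was 0.24 (SE 0.10), a call lost with DESeq2 (adjusted p = 0.169) and without cisplatin replicate 2 (0.174), saline replicate 1 (0.139) or saline replicate 2 (0.061). Esrrb, the remaining receptor of the family and not a member, had 14.6 and 14.1 CPM against 14.7 and 15.0 CPM (log2 fold change -0.05, SE 0.11; adjusted p = 0.69), and it was 0.32 with library size alone (adjusted p = 0.0145). The ratio of Esrrg to Esrra in FPKM was 0.739 and 0.746 after saline and 0.199 and 0.196 after cisplatin. The 3.77-fold difference in this ratio was large beside the agreement of the replicates. Esrra held 54.7 and 54.3% of the family's summed FPKM after saline and 73.4 and 74.2% after cisplatin.

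Ppara (ENSMUSG00000022383.11, chromosome 15, 85734983 to 85802819, plus strand) encodes the receptor that switches on fatty acid oxidation when bound by fatty acids. It had 502 and 571 counts after cisplatin and 1694 and 2229 after saline, or 21.2 and 22.0 CPM against 91.7 and 91.3 CPM. The groups were 4.23-fold apart, with replicates within 1 CPM of each other (log2 fold change -2.08, SE 0.07; adjusted p = 4.33e-16, edgeR quasi-likelihood). Rxra, which encodes the usual partner with which PPAR-alpha binds DNA, fell by less, from 72.2 and 74.2 CPM to 40.3 and 44.8 CPM. The FPKM ratio of Ppara to Rxra was 1.83 and 1.77 after saline and 0.757 and 0.708 after cisplatin.

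Of the nuclear respiratory factors, Nrf1 did not pass the test and Gabpa fell. Nrf1 (ENSMUSG00000058440.12, chromosome 6, 30047988 to 30153458, plus strand) encodes nuclear respiratory factor 1, which binds near many genes of the respiratory chain. It stood at 21.2 CPM in both cisplatin libraries and at 19.3 and 23.9 CPM after saline. The cisplatin libraries thus fell between the saline libraries. The log2 fold change was -0.04 (SE 0.10; adjusted p = 0.761), the direction depended on the scaling, and with library size alone it was 0.33 and passed (adjusted p = 0.00878). Leaving out saline replicate 2 also turned it, to 0.13 (adjusted p = 0.357).

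Gabpa (ENSMUSG00000008976.14, chromosome 16, 84834925 to 84863779, plus strand) encodes the DNA-binding subunit of GABP, also called nuclear respiratory factor 2. It stood at 48.9 and 51.3 CPM after cisplatin and at 75.5 and 79.2 CPM after saline, with no overlap. The fall (log2 fold change -0.63, SE 0.06; adjusted p = 1.64e-08, edgeR quasi-likelihood) was -0.26 with library size alone and -0.35 or -0.31 on log2 of FPKM plus 0.1 or 1. The exons of Gabpa share 397 bases with Atp5j on the opposite strand, an ATP synthase subunit gene that fell by more (log2 fold change -1.12, SE 0.06). Without the strand setting the part of Atp5j reads in the Gabpa values was not tested. Gabpb1, which encodes a partner subunit of GABP, rose from 14.3 and 12.01 CPM to 27.5 and 26.7 CPM. The FPKM ratio of Gabpa to Gabpb1 went from 7.73 and 9.67 after saline to 2.61 and 2.83 after cisplatin, a 3.19-fold difference. Nrf1 to Gabpa stood at 0.240 and 0.284 after saline and at 0.408 and 0.387 after cisplatin.

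Of the 2 members that act on mitochondrial DNA, Tfam fell and Polrmt rose slightly. Tfam (ENSMUSG00000003923.12, chromosome 10, 71225464 to 71238280, minus strand) stood at 47.3 and 41.3 CPM after cisplatin against 65.6 and 68.8 CPM after saline. All cisplatin values were below all saline values, and the cisplatin replicates differed by more than those of most members. The log2 fold change was -0.60 (SE 0.07; adjusted p = 2.30e-07, edgeR quasi-likelihood). As a plain share of the library, Tfam had 54.3 and 46.3 CPM before TMM scaling against 56.5 and 61.9 CPM, and the log2 fold change with library size alone was -0.24 (adjusted p = 0.0088). On log2 of FPKM plus 0.1 or 1 it was -0.33 or -0.30 (adjusted p = 0.0352 or 0.0338).

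Polrmt (ENSMUSG00000020329.10, chromosome 10, 79736123 to 79746581, minus strand) stood at 18.4 and 20.2 CPM after cisplatin against 16.1 and 16.6 CPM after saline. The groups did not overlap, but the difference was small, with a log2 fold change of 0.24 (SE 0.10; adjusted p = 0.0404, edgeR quasi-likelihood). It did not pass with relative log expression size factors (adjusted p = 0.0545), without the filter (0.0795) or with DESeq2 (0.184). Nor did it pass without cisplatin replicate 2 (0.239), saline replicate 1 (0.136) or saline replicate 2 (0.0772). Under library size alone the log2 fold change was 0.60, and on log2 of FPKM plus 0.1 or 1 it was 0.49 or 0.38. The FPKM ratio of Tfam to Polrmt was 3.49 and 3.55 after saline and 2.20 and 1.75 after cisplatin.

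**Figure D3:**
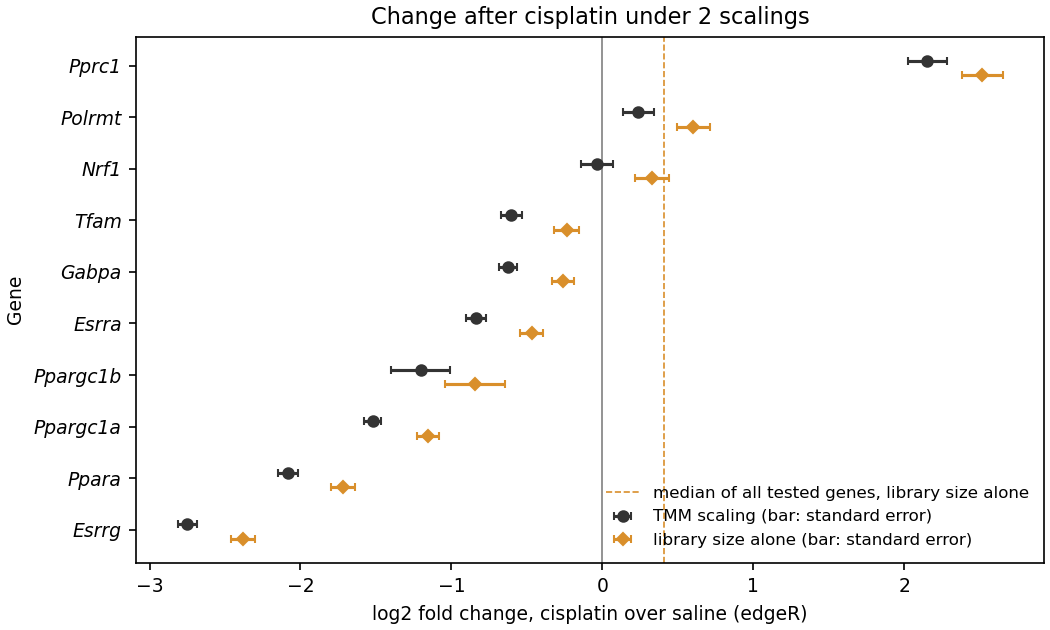
log2 fold change (cisplatin over saline, edgeR) of each member with TMM scaling (circles) and with library size alone (diamonds), bars giving 1 standard error. Esrrg, at -2.75, and Ppara, at -2.08, are farthest to the left, Pprc1, at 2.15, is farthest to the right, and every member sits further right with library size alone, as does the median of all genes (dashed line, 0.41).

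Per length, the order of the members differed between the groups. After saline, Esrra was the most abundant at 16.5 ± 0.566 FPKM (mean ± SD, n = 2), before Ppara at 14.9 ± 0.976, Esrrg at 12.3 ± 0.495 and Ppargc1a at 11.8 ± 0.877. The ranges of Esrrg and Ppargc1a overlapped, as did those of Tfam (8.82 ± 0.884) and Gabpa (8.75 ± 0.891), and of Polrmt (2.51 ± 0.219) and Nrf1 (2.31 ± 0.502). Ppargc1b at 0.965 ± 0.106 and Pprc1 at 0.50 ± 0.0283 were the lowest. After cisplatin, Esrra was still first at 11.2 ± 0.177 FPKM, followed by Tfam at 6.995 ± 0.757 and Gabpa at 6.83 ± 0.148, whose ranges overlapped. Ppara stood at 4.23 ± 0.0636 and Esrrg at 2.20 ± 0.0141, the latter at rank 9 where it had been at rank 3. Pprc1 at 2.68 ± 0.141 overlapped Nrf1 at 2.71 ± 0.0424 and lay above Esrrg. Ppargc1b, at 0.50 ± 0.099, was last.

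The factors that work with the members changed in both directions. A similar mix is the background here, with 37.2% of tested genes higher and 36.4% lower, or 52.3% and 24.2% with library size alone. Of 26 tested partner receptors and factors 7 rose and 12 fell, while 7 did not pass. Their median log2 fold change was -0.08, and library size alone gave 12 higher and 7 lower. Hnf4a, which encodes a receptor that maintains proximal tubule identity, fell from 725 and 693 CPM to 120 and 119 CPM. Ppard, the PPAR of most tissues, rose from 3.14 and 2.79 CPM to 5.40 and 5.28 CPM. Of 30 genes known to act on PGC-1-alpha, 13 rose and 14 fell, while 3 did not pass. Their median was 0.05, and library size alone gave 15 higher and 7 lower. Sirt1, which encodes a deacetylase that activates PGC-1-alpha, rose from 36.1 and 40.4 CPM to 58.7 and 53.0 CPM. The catalytic subunits of AMP-activated kinase, an energy sensor that phosphorylates PGC-1-alpha, moved apart. Prkaa2 fell from 381 and 375 CPM to 108 and 106 CPM, while Prkaa1 rose from 50.8 and 49.4 CPM to 57.9 and 56.7 CPM, though not with DESeq2 (adjusted p = 0.0839), nor without cisplatin replicate 1 (0.0804) or saline replicate 2 (0.0521). Nrip1, which encodes a corepressor of the ERR and PPAR receptors, fell from 102 and 96.5 CPM to 78.0 and 83.3 CPM, but this direction turned with library size alone (log2 fold change 0.07, adjusted p = 0.365).

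Most genes listed as targets of ERR and PGC-1 or of PPARA fell. The part of cell makeup in these falls was not tested. Of 25 tested target genes of ERR and PGC-1, 24 fell and 1 rose, beside 36.4% lower among all tested genes. Their median log2 fold change was -1.01, beside 0.04, and library size alone gave 19 lower and 2 higher. This list, like the others, was chosen with earlier results of these data known, so the comparison with all genes is description only. Cycs, the cytochrome c gene, fell from 545 and 582 CPM to 341 and 323 CPM. Sdhb, a subunit of succinate dehydrogenase, fell from 374 and 360 CPM to 175 and 177 CPM, and Idh3a, of the citric acid cycle, from 180 and 152 CPM to 72.0 and 71.0 CPM. Cs, the citrate synthase gene, fell from 178 and 205 CPM to 130 and 141 CPM, and did not pass with library size alone (adjusted p = 0.133). The target gene that rose was Mdh2, a malate dehydrogenase gene, from 154 and 131 CPM to 158 and 164 CPM. It was named after its values were seen, and it did not pass with DESeq2 or without cisplatin replicate 2 or saline replicate 2, when 0 targets were higher.

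Of 29 tested PPARA target genes 23 fell and 5 rose, while Pex11a (log2 fold change -0.24, or 0.13 with library size alone) did not pass. Their median was -0.92, and library size alone gave 20 lower and 5 higher. Among all tested genes 36.4% fell and 37.2% rose, or 24.2% and 52.3% with library size alone. Cpt1a, the gate of fatty acids into mitochondria, fell from 584 and 541 CPM to 188 and 184 CPM. Ehhadh, an enzyme of peroxisomal oxidation, fell from 741 and 665 CPM to 178 CPM in both cisplatin libraries. The 5 that rose, named after their values were seen, were Pdk4, Plin2, Angptl4, Acot1 and Acot2. Pdk4, a kinase that restrains pyruvate oxidation, had a log2 fold change of 3.21 (SE 0.06) and Plin2, a lipid droplet coat gene, of 2.35 (SE 0.06). Acot1 and Acot2 have near-identical copies, so their values are uncertain, and Acot1 did not pass without cisplatin replicate 1 (adjusted p = 0.0785).

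The machinery that works beside Tfam and Polrmt was mixed. For comparison, 36.4% of all tested genes fell and 37.2% rose, or 24.2% and 52.3% with library size alone. Of 24 genes of mitochondrial DNA transcription and replication 12 fell and 2 rose, while 10 did not pass. Their median was -0.26, and library size alone gave 7 lower and 11 higher. Tfb2m, the transcription factor that starts mitochondrial transcription with POLRMT, fell from 46.4 and 47.3 CPM to 34.9 and 31.4 CPM, and did not pass with library size alone (adjusted p = 0.16). Tefm, the elongation factor, fell from 18.3 and 20.4 CPM to 11.9 and 10.6 CPM, and Tfb1m, a methylase of mitochondrial ribosomal RNA, from 10.9 CPM in both libraries to 4.09 and 3.62 CPM. Peo1, the helicase Twinkle, had 25.01 and 26.03 CPM against 23.97 and 21.3 CPM (adjusted p = 0.0954, or 9.92e-06 with library size alone, as higher, and 0.0448 without saline replicate 1). The genes that rose were Mterf1a, which has a near-identical copy, and Exog, both named after their values were seen. Exog did not pass with DESeq2 (adjusted p = 0.0895), nor without cisplatin replicate 1 (0.059) or saline replicate 1 (0.0652). Of 29 genes of mitochondrial protein import 21 fell, 3 rose (Tomm34, Grpel1 and Gfer, named after their values were seen) while 5 did not pass. Their median was -0.40, and library size alone gave 9 lower and 8 higher. Tomm20, a receptor of the outer membrane, fell from 310 and 314 CPM to 168 and 163 CPM, and Tomm40, the pore, stood at 17.8 and 18.7 CPM against 17.4 and 18.8 CPM, with a direction that differed between scalings.

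**Figure D4:**
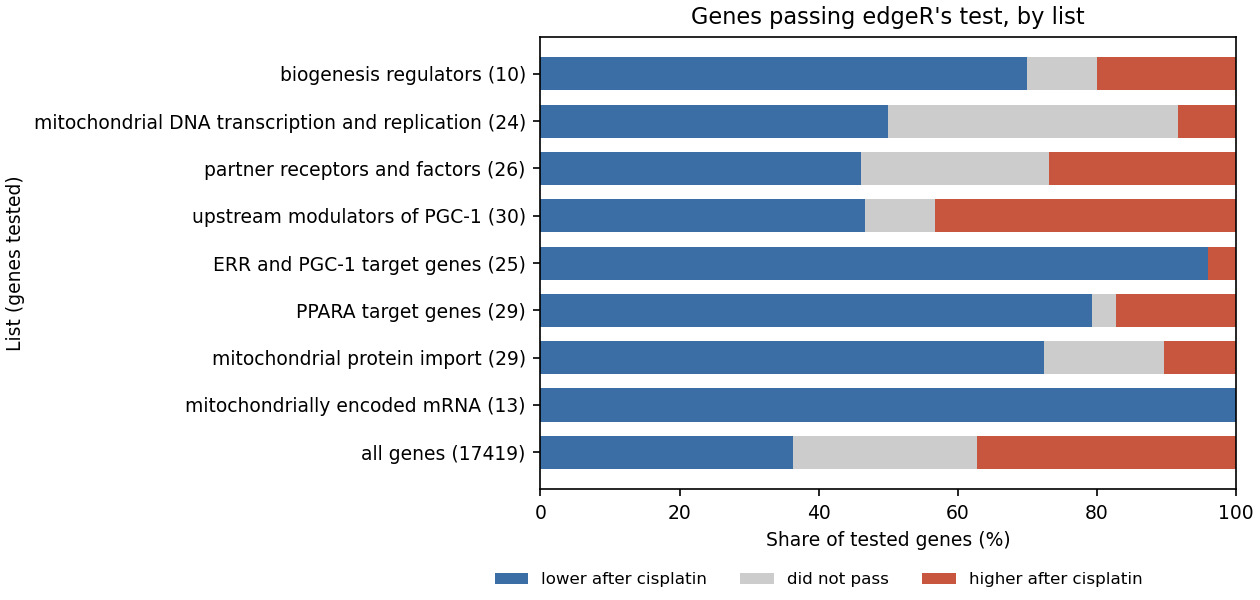
Share (%) of the tested genes of each list that were lower, did not pass or were higher after cisplatin in edgeR's test with TMM scaling, with the number tested in parentheses and all tested genes in the bottom bar. The ERR and PGC-1 target genes and the mitochondrially encoded mRNAs are almost all or all lower, while the lists of partners and modulators are mixed.

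The mitochondrial transcripts, which Tfam and Polrmt serve, did not form a single pattern. All 13 mRNAs of the mitochondrial genome fell under TMM scaling (median log2 fold change -0.89), and 10 fell under library size alone, where mt-Nd1 (0.007) and mt-Co1 (0.06) turned direction. Of all tested genes, 36.4% fell under TMM scaling and 24.2% under library size alone. As a share of all counts, however, the 13 mRNAs made up 5.99 and 6.41% after cisplatin and 6.40 and 6.48% after saline. Most of that was mt-Co1, and the other 12 held 1.27 and 1.53% against 1.89 and 1.77%. Some nuclear copies of mitochondrial DNA are near-identical to it. How reads that fit several places were counted is not given, so levels of single mitochondrial genes are uncertain. Per length, mt-Atp6 was listed at 17.7 and 20.7 FPKM after cisplatin against 26.7 and 37.4 FPKM after saline, and mt-Nd1 at 2830 and 3422 FPKM against 3390 and 3258 FPKM. The mitochondrial ribosomal RNAs mt-Rnr1 and mt-Rnr2 together held 3.74 and 5.84% of counts after cisplatin and 2.85 and 1.67% after saline. The replicates differed widely, and with all 4 libraries 1 of the 2 passed, mt-Rnr2, as higher. It did not pass with DESeq2 (adjusted p = 0.178) or on log2 of FPKM plus 0.1 (0.0674), and both passed with library size alone, without the filter and with a replicate block. The 2 were called higher without saline replicate 1, and 1 was called lower without saline replicate 2. The libraries were depleted of ribosomal RNA.

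Markers of other cell types moved in these libraries too, where 37.2% of all tested genes rose and 36.4% fell. Of 8 fibroblast and mural markers 8 rose, and their summed level was 1446 and 1448 CPM after cisplatin against 403 and 412 CPM after saline. Of 8 podocyte markers 7 rose and 1 fell (627 and 658 CPM against 429 and 417 CPM), and of 8 endothelial markers 6 rose and 1 fell (813 and 828 CPM against 614 and 612 CPM). Of 8 macrophage markers 7 rose and 1 fell (246 and 262 CPM against 89.8 and 99.98 CPM). Neutrophil markers summed to 33.1 and 30.5 CPM against 4.11 and 2.91 CPM, 5 of 5 tested rising. Ly6g, which was not tested, had 6 and 8 counts after cisplatin and 0 counts in both saline libraries. Collecting duct markers fell in 7 of 10 cases and rose in 2, from 394 and 391 CPM summed to 221 and 224 CPM. Lymphocyte markers summed to 3.73 to 5.86 CPM in all libraries, with 2 of 6 tested rising. The defining markers of brown fat and muscle, tissues rich in several members, were at or near 0: Ucp1 had at most 1 count in a library, and so did Acta1 and Myh4. The only gene of that list tested was Cidec, of lipid droplets, named after its values were seen, and it rose from 2 and 1 counts to 130 and 173.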

How the data were processed

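Kidney RNA depleted of ribosomal RNA was sequenced from directional libraries, 2 after cisplatin and 2 after saline. The authors deposited raw read counts per gene for 29190 genes and FPKM values for most of them. Per the submitters' processing notes, GRCm38, bcl2fastq, TopHat2 and edgeR were used, with no role or version named. Which program counted the reads, whether it used strand and which total scaled the deposited FPKM were not given in the sources used here.

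Counts were fitted over all 4 libraries with edgeR 4.0.16 (filterByExpr, TMM, quasi-likelihood F test, 2 residual degrees of freedom, Benjamini-Hochberg adjustment over 17419 genes), tested first on simulated data. The standard error was taken from the log2 fold change and its F statistic. Levels of different genes were compared in FPKM. A floor of 3 counts was 0.116 to 0.162 CPM, covering counting error only. The chi-square per degree of freedom between replicates was 11.5 (cisplatin) and 36.6 (saline), above sampling noise. It included the mitochondrial ribosomal RNA rows and cannot tell biological from technical differences. The coefficient of variation between replicates in edgeR was 6.42%. Each library was counted as a sample. Alternatives were other scalings, filters, DESeq2 1.42.0, limma 3.58.1 on log2 of FPKM plus 0.1 or 1, removal of mitochondrial and ribosomal RNA rows, leaving out each library in turn, and a fit with a replicate block.

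The members and lists were chosen with earlier results of these data known. Named genes were the members, genes from the first 4 found of each list as written down, the mitochondrial ribosomal RNAs, and the 3 genes nearest to Ppargc1a. Some genes under this rule are not reported here. Other genes are marked as named after their values were seen, with exceptions. Esrrb, Pex11a, mt-Nd6, Ly6g, Acta1 and Myh4 lie outside the rule and carry no such mark. Nor do Ldb1, Trmt112 and Atp5j carry it, which share exon bases with members. Annotation came from GENCODE M21 and start windows from RefSeq, both on GRCm38.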

Additional observations from a re-analysis of the deposited data

How the results depend on the processing

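The 8 members Ppargc1a, Ppargc1b, Pprc1, Esrra, Esrrg, Ppara, Gabpa and Tfam kept their direction and passed the test under all 14 alternatives. Nrf1 turned positive under upper-quartile scaling (0.080), with library size alone (0.33), log2 of FPKM plus 0.1 (0.24) or 1 (0.18) and without saline replicate 2, and with a library left out it ranged from -0.19 to 0.13. Polrmt lost its call under 6 alternatives, so that the members called higher numbered 1 with relative log expression size factors, without the filter and with DESeq2, and 1 to 2 with each library left out. Genes lower among all tested numbered 4207 with library size alone against 6333. For mitochondrial DNA transcription and replication, the number higher was 11 when scaled by library size alone, 6 under upper-quartile scaling, 1 with DESeq2 and 7 or 8 with FPKM plus 0.1 or 1, and the number lower 7 with library size alone and 6 with FPKM at either pseudocount. With library size alone, 12 partners were higher and 7 lower, 7 modulators were lower, 2 ERR and PGC-1 targets were higher, and 8 import genes were higher and 9 lower. With FPKM at either pseudocount, 7 partners, 8 modulators and 10 import genes were lower and 5 import genes higher, the latter also with upper-quartile scaling. ERR and PGC-1 targets called higher were 0 with DESeq2 and 0 to 1 with a library left out. Mitochondrial ribosomal RNAs called higher were 2 with library size alone, without the filter and with the replicate block, 0 with DESeq2 and with FPKM plus 0.1, and 1 to 2 with a library left out, when 0 to 1 were lower. Removing the mitochondrial rows gives no value for the mitochondrial transcripts. Apart from scaling, which shifts all genes, the cause was not tested. Deviations from the group mean in the libraries numbered 1 had a correlation of -0.02 between the groups. With 2 libraries per group this cannot tell whether the samples were paired. The replicate block called 6382 genes higher and 6271 lower, against 6487 and 6333, and changed no call of a member. Low counts limit Ppargc1b most, with 54 to 157 counts in a library.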

Other observations

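GENCODE M21 places transcript models of its class TEC, which still lack experimental evidence, within the span of 2 members, on the same strand and with 0 exon bases shared. They were named after their values were seen. Inside Ppargc1a, Gm42615 stood at 2.57 and 2.01 CPM after cisplatin against 9.79 and 8.56 CPM after saline (log2 fold change -2.00, SE 0.19), and Gm43605 at 3.50 and 3.47 CPM against 9.20 and 8.20 CPM (-1.31, SE 0.17). Gm42614 stood at 2.19 and 3.01 CPM against 3.79 and 4.22 CPM (-0.62, SE 0.22), with all 3 lower by edgeR's quasi-likelihood test (largest Benjamini-Hochberg adjusted p = 0.0173). The call of Gm42614 was lost with library size alone (0.294), with DESeq2 (0.0855), and without cisplatin replicate 1 (0.168) or saline replicate 2 (0.0707). Inside Esrrg, Gm38315 stood at 0.759 and 1.04 CPM against 3.46 and 3.85 CPM (log2 fold change -2.01, SE 0.28). These models thus had the direction of the genes around them, where 36.4% of all tested genes were lower. Whether part of their reads came from the surrounding genes was not tested.

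The single mitochondrial mRNA of the light strand, mt-Nd6, held 0.292 and 0.327% of the mitochondrial mRNA counts after cisplatin and 0.584 and 0.552% after saline. If counting ignored strand, reads from the opposite strand are part of this value. Most of the mitochondrial mRNA counts were those of mt-Co1, so the share of mt-Nd6 also depends on that gene. As a share of all counts, mt-Co1 held 4.72 and 4.87% after cisplatin and 4.51 and 4.71% after saline.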
